A study of Saccharomyces cerevisiae with 2 samples.

Results

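The 10 genes described here encode the mating pheromones of budding yeast, *Saccharomyces cerevisiae*, and enzymes that mature them. They were taken by systematic name from the count table, which lists 7127 features, and all 10 names were found. The members comprised the a-factor genes *MFA1* and *MFA2*, the α-factor genes *MF(ALPHA)1* and *MF(ALPHA)2*, and the 6 processing genes *STE13*, *KEX2*, *RAM1*, *RAM2*, *STE14* and *AXL1*. They had been chosen with their counts in these libraries known, so all differences between the genotypes are given as a description and no test is attached to them.

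Total RNA was sequenced without rRNA depletion from 1 wild type library and 1 *npl3∆* library, the latter from cells that lack the RNA-binding protein Npl3. Both cultures were grown at 25 °C, and 200 ng of RNA entered each library. The study's strains are mostly of the BY4741 background, and its "wild type" carries auxotrophic markers. Neither the labels nor the RNA-seq methods name the strains that were sequenced or their mating types. The study's strain list gives a mating type for most strains and holds more than 1 wild type and more than 1 *npl3∆* strain. It was read from page images, in which a and α are easily confused, so its entries were not used here. The libraries therefore compare a pair of cultures, and an effect of the *NPL3* deletion cannot be told apart from any other difference between the strains, a difference in mating type included. *NPL3* itself (YDR432W) had 1345 counts in wild type and 3 in *npl3∆*. The library size was the sum of the counts outside the rRNA, 4799318 in wild type and 6674796 in *npl3∆*. A single gene, *ATG26*, took 23.5% of this sum in wild type and 34.5% in *npl3∆*. Levels are given as CPM, the counts per 1000000 counts of this sum. Intervals are 95% exact intervals and describe the counting error alone. The reads carried no molecular identifiers and need not stem from separate RNA molecules. No difference has a replicate check, because each genotype was sequenced in 1 library.

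Haploid yeast cells are of mating type a or α, and each type secretes a peptide that cells of the other type recognise. The a-factor is a short lipopeptide made by a cells. Its precursor ends in a CaaX sequence, a cysteine followed by 3 further residues, on which a farnesyl group is attached before the last residues are cut off, the end is methylated and the front is trimmed. The α-factor is made by α cells as a longer precursor that enters the secretory pathway and is cut into several copies of the peptide. In a cells the α-specific genes lack their activator α1. In α cells the repressor α2 acts with Mcm1 on the a-specific genes.

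The coding sequences carry these processing steps, and those of the a-factor genes are short enough to be shown whole. *MFA1* (YDR461W) lies on the plus strand of chromosome IV from 1385176 to 1385286 and *MFA2* (YNL145W) on the plus strand of chromosome XIV from 352414 to 352530 (genome build R64, the same assembly as sacCer3). They hold 36 and 38 codons before the stop codon, each in 1 exon. Capitals mark the 12 codons of the mature a-factor, which end with the cysteine of the CaaX sequence.
MFA1: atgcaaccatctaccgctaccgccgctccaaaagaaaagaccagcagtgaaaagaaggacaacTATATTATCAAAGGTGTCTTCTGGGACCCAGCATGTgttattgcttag
MFA2: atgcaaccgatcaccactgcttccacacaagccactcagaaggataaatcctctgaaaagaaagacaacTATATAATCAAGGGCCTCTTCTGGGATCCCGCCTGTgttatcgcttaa
Within the capitals the genes differed at 7 of 36 bases, and 1 of the 12 codons, codon 6 of the mature peptide, encodes another residue.

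The α-factor precursors repeat the peptide. *MF(ALPHA)1* (YPL187W; chromosome XVI, 193648 to 194145, plus strand) has 165 codons and *MF(ALPHA)2* (YGL089C; chromosome VII, 344791 to 345153, minus strand) has 120, each in 1 exon. A unit begins with a lysine-arginine pair, where the endoprotease Kex2 cuts, followed by dipeptides ending in alanine, which the dipeptidyl aminopeptidase Ste13 removes, and then by the mature peptide. The first gene holds 4 such units and the second holds 2. Each unit is given here in reading direction, with the 13 codons of the mature α-factor in capitals.
MF(ALPHA)1 unit 1: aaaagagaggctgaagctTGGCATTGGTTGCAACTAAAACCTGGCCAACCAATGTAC
MF(ALPHA)1 unit 2: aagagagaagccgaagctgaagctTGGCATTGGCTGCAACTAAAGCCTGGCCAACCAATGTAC
MF(ALPHA)1 unit 3: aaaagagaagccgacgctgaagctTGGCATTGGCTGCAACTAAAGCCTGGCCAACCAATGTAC
MF(ALPHA)1 unit 4: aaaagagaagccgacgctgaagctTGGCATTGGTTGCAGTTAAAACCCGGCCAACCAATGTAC
MF(ALPHA)2 unit 1: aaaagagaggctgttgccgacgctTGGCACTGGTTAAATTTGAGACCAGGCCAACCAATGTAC
MF(ALPHA)2 unit 2: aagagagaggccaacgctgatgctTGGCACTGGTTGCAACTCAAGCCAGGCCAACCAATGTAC
The 4 mature stretches of *MF(ALPHA)1* differed from the first by at most 3 of 39 bases and encode the same peptide. Unit 1 of *MF(ALPHA)2* differed from it by 8 bases and encodes another residue at 2 of the 13 codons, codons 5 and 7, whereas unit 2 differed by 4 bases and encodes the same peptide. In all, *MF(ALPHA)1* holds 11 dipeptides for Ste13 and *MF(ALPHA)2* holds 6.

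**Figure D1:**
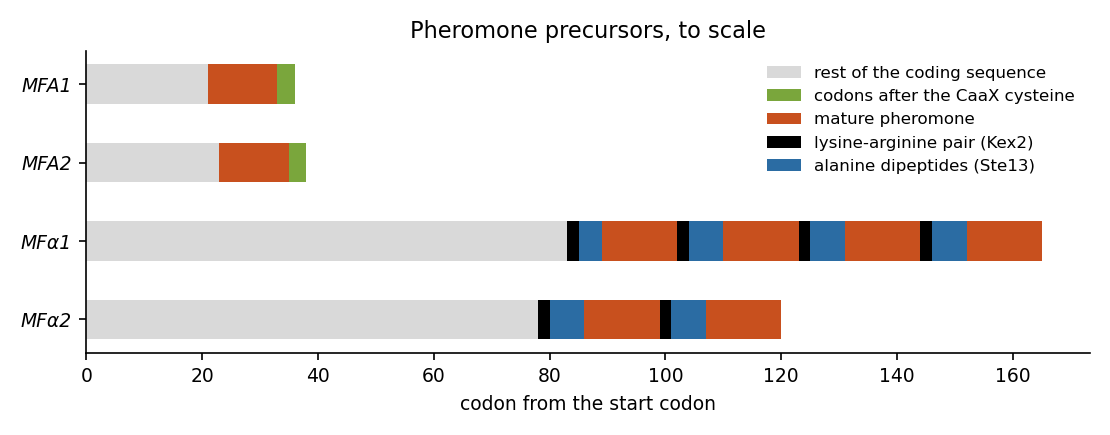
Map of the 4 pheromone precursors to scale, with codons counted from the start codon on the horizontal axis and 1 bar per gene. Orange blocks are mature pheromone, black blocks lysine-arginine pairs, blue blocks alanine dipeptides and green blocks the codons after the CaaX cysteine. The a-factor precursors hold 1 copy of the peptide, *MF(ALPHA)1* holds 4 and *MF(ALPHA)2* holds 2.

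Each library held almost only counts of 1 kind of pheromone gene. Of the 1321 pheromone counts in wild type, 1316 came from the a-factor genes, a share of 99.6% (99.1% to 99.9%, Clopper-Pearson). Of the 11278 pheromone counts in *npl3∆*, 11268 came from the α-factor genes and 10 from the a-factor genes, which leaves a share of 0.0887% (0.0425% to 0.163%) for a-factor. These shares do not depend on the library size. The pheromone genes together reached 275 CPM in wild type and 1690 CPM in *npl3∆*.

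*MFA1* had 326 counts in wild type (67.9 CPM, 60.8 to 75.7) and 9 in *npl3∆* (1.35 CPM, 0.617 to 2.56). Its level was 50.4-fold lower in *npl3∆* (95% interval 26.2 to 111). *MFA2* had 990 counts in wild type (206 CPM, 194 to 220) and 1 in *npl3∆* (0.150 CPM, 0.00379 to 0.835). The scaled ratio of *npl3∆* to wild type was 0.000726 with an interval of 1.84e-05 to 0.00406. With a single count in *npl3∆*, the size of this difference is known only within that wide interval. For both a-factor genes the counting intervals of the libraries were far apart.

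*MF(ALPHA)1* had 4 counts in wild type (0.833 CPM, 0.227 to 2.13) and 7558 in *npl3∆* (1132 CPM, 1107 to 1158), and was 1359-fold higher in *npl3∆* (530 to 4988). *MF(ALPHA)2* had 1 count in wild type (0.208 CPM, 0.00528 to 1.16) and 3710 in *npl3∆* (556 CPM, 538 to 574). Its scaled ratio was 2668 with an interval of 478 to 105391. The α-factor genes were thus close to absent from the wild type counts and among the abundant mRNAs of *npl3∆*.

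**Figure D2:**
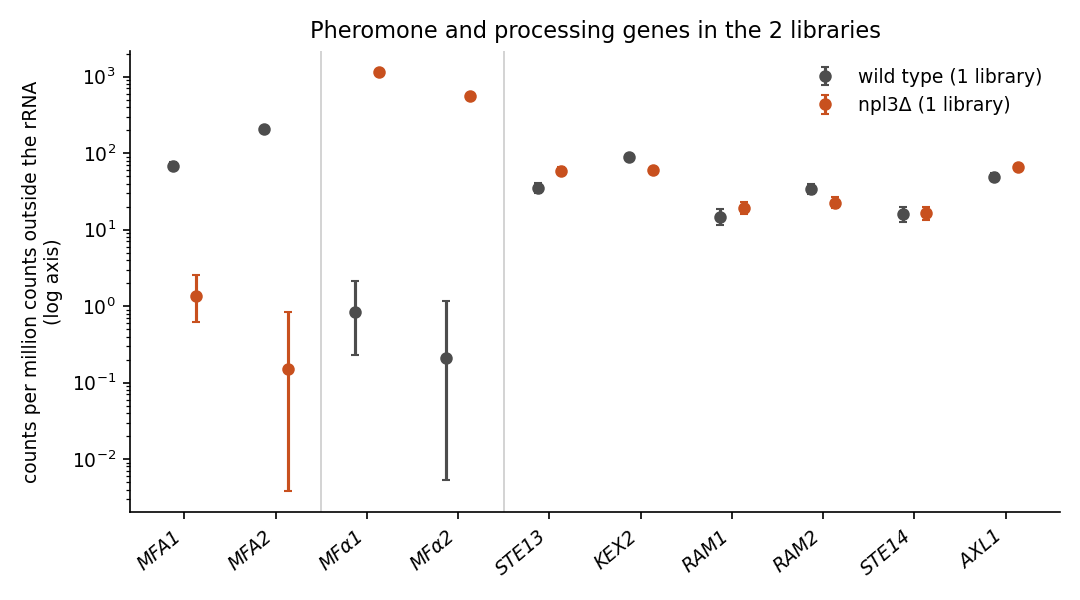
Level of each gene in wild type (grey) and *npl3∆* (orange), 1 library each, in CPM on a log axis. Bars are 95% exact Poisson intervals. *MFA1* and *MFA2* lie at 67.9 and 206 in wild type and at 1.35 and 0.150 in *npl3∆*, the α-factor genes show the opposite order, and the processing genes lie between 14.8 and 89.0 in both libraries.

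The difference was also expressed as log2 of the ratio of *npl3∆* to wild type, with a pseudocount of 0.5 on the scaled counts, over the 6118 genes outside the rRNA whose counts in both libraries summed to 10 or more. All 10 members had that many. The median of all genes was 0.02, and 80% of them lay between -0.65 and 0.87. The log2 ratio was -5.57 for *MFA1*, -9.76 for *MFA2*, 10.26 for *MF(ALPHA)1* and 10.87 for *MF(ALPHA)2*. *MFA2* had the lowest and *MF(ALPHA)2* the highest log2 ratio of all 6118 genes, although a count of 1 makes both values dependent on the pseudocount. Of the 10 members, 4 differed by at least 2-fold, all of them pheromone genes, beside 12.4% of all genes. Among all genes, 8.14% were at least 2-fold higher in *npl3∆* and 4.3% at least 2-fold lower. Since the members were chosen from this contrast, nothing is read from that comparison.

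**Figure D3:**
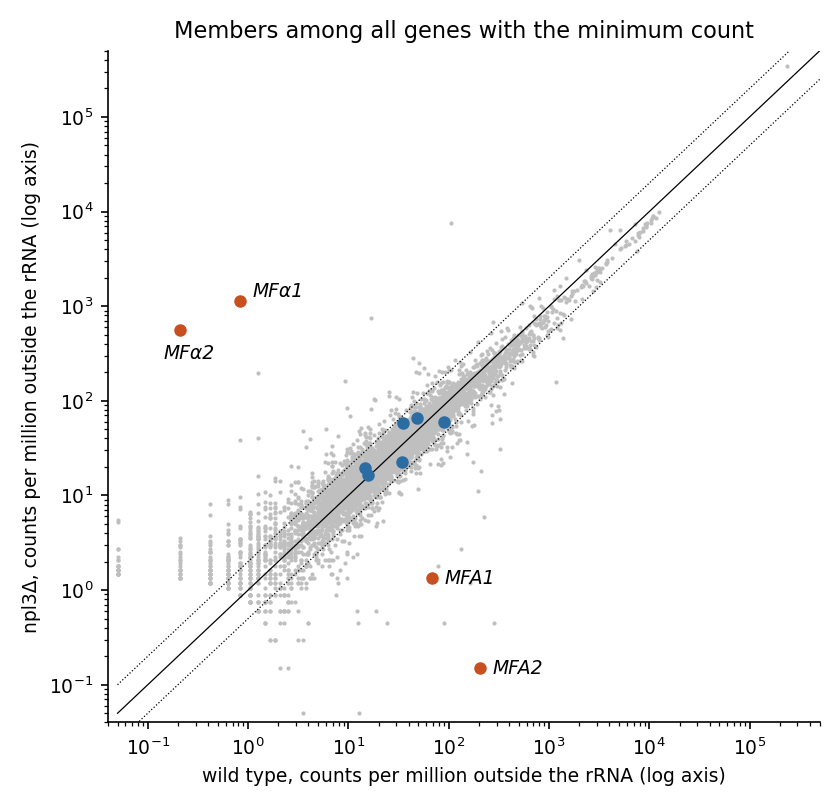
Each gene whose counts summed to 10 or more, with its CPM in wild type on the horizontal and in *npl3∆* on the vertical log axis. Grey points are all genes, orange points the pheromone genes and blue points the 6 processing genes. The solid line marks equal levels, the dotted lines a 2-fold difference, and genes without a count in a library are drawn at 0.05 CPM. The pheromone genes lie far off the line on opposite sides, while the processing genes lie within the dotted lines.

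The genes of each pair contributed unequal counts. In wild type *MFA2* had 3.04 counts per count of *MFA1*, or 2.88 per coding length. In *npl3∆* the order was the opposite, with 0.111 counts of *MFA2* per count of *MFA1*, a change of the quotient by a factor of 0.0366 (0.000834 to 0.266). The quotient in *npl3∆* rests on 10 counts. For the α-factor genes the quotient in *npl3∆* was 2.04 counts of *MF(ALPHA)1* per count of *MF(ALPHA)2*, or 1.48 per coding length. In wild type it rested on 5 counts, so the change, a factor of 0.509 (0.0103 to 5.15), was not resolved at this depth. When the level per coding length in *npl3∆* was multiplied by the number of pheromone units shown above, *MF(ALPHA)1* accounted for 74.8% of the encoded units and *MF(ALPHA)2* for 25.2%.

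The pheromone genes could be told apart by sequence. Of all stretches of 31 bases within the coding sequences of *MFA1*, *MFA2* and *MF(ALPHA)2*, 0 occurred elsewhere in the genome. In *MF(ALPHA)1*, 102 of 468 occurred more than once, all of them within the gene itself, where the units repeat. None of the 10 members overlapped another gene of the RefSeq annotation. Rows of the count table without a match in that annotation were not covered by this check. The nearest protein-coding neighbours of the pheromone genes, 8 genes at 206 to 997 bases, had log2 ratios from -1.26 to 0.99, and 1 of them, *CMI8* beside *MFA1*, with 35 and 20 counts, was at least 2-fold lower. *UIP4*, with 5 and 12 counts, and YNL146W, with 11 and 31, also rest on few counts. YGL088W, with 52452 and 60136 counts, had nearly the same CPM in each library as the small RNA row snR10. Both rows had a log2 ratio of -0.28. Whether they count the same reads was not tested.

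The 6 processing genes differed far less. Their median log2 ratio was 0.22, with a range from -0.61 to 0.74, and 0 of the 6 differed by 2-fold. *STE13*, *RAM1*, *STE14* and *AXL1* had log2 ratios above 0, and *KEX2* and *RAM2* had ratios below 0. The counting intervals of *RAM1* and *STE14* included an equal level. This division of 4 and 2 genes was obtained under each scaling and each pseudocount tried.

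The enzymes of the α-factor pathway differed in opposite directions. *STE13* (YOR219C; chromosome XV, 752214 to 755009) had 170 counts in wild type (35.4 CPM) and 394 in *npl3∆* (59.0 CPM), a ratio of 1.67 (1.39 to 2.01). Without scaling, its log2 ratio was 1.21, past 2-fold. *KEX2* (YNL238W; chromosome XIV, 202428 to 204872), which encodes the protease that releases the units, had 427 counts (89.0 CPM) and 396 (59.3 CPM), a ratio of 0.667 (0.580 to 0.766). With the library size used here, neither counting interval included 1. Without scaling, the log2 ratios of *KEX2* and *RAM2* were -0.11 and -0.14, closer to 0 than with it. The number of *STE13* counts per *KEX2* count was 0.398 in wild type and 0.995 in *npl3∆*, a factor of 2.50 (1.98 to 3.15). This factor is free of any choice of library size.

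The subunit genes of the farnesyltransferase that modifies the a-factor precursor also differed in their proportion. The β subunit gene *RAM1* (YDL090C; chromosome IV, 295034 to 296329) had 71 counts in wild type (14.8 CPM) and 129 in *npl3∆* (19.3 CPM), a ratio of 1.31 (0.970 to 1.77). The gene of the α subunit, *RAM2* (YKL019W; chromosome XI, 402568 to 403518), whose protein is shared with another prenyltransferase, had 165 counts (34.4 CPM) and 150 (22.5 CPM), a ratio of 0.654 (0.520 to 0.820). There were 0.430 counts of *RAM1* per count of *RAM2* in wild type and 0.860 in *npl3∆*, a factor of 2.00 (1.37 to 2.93).

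*STE14* (YDR410C; chromosome IV, 1292372 to 1293091), which encodes the methyltransferase of the CaaX end, had 76 counts (15.8 CPM) and 110 (16.5 CPM). The ratio of 1.04 (0.770 to 1.41) left room for a difference in either direction. *AXL1* (YPR122W; chromosome XVI, 782045 to 785671), whose protein makes the last cut at the front of a-factor and also takes part in axial budding of haploid cells, had 234 counts (48.8 CPM) and 444 (66.5 CPM). Its ratio was 1.36 (1.16 to 1.61). Among the 15 quotients that can be formed between the 6 processing genes, the pairs of *KEX2* with *RAM2* (factor 1.02, 0.780 to 1.33) and of *RAM1* with *AXL1* (factor 0.958, 0.681 to 1.35) changed least. How far such differences vary between cultures of 1 genotype cannot be seen from these libraries. Among the 3879 genes with 100 to 1000 counts in the libraries together, as all processing genes have, 80% lay between -0.54 and 0.66 on the log2 scale, so that *STE13*, *KEX2* and *RAM2* lay outside this range and the others within it.

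**Figure D4:**
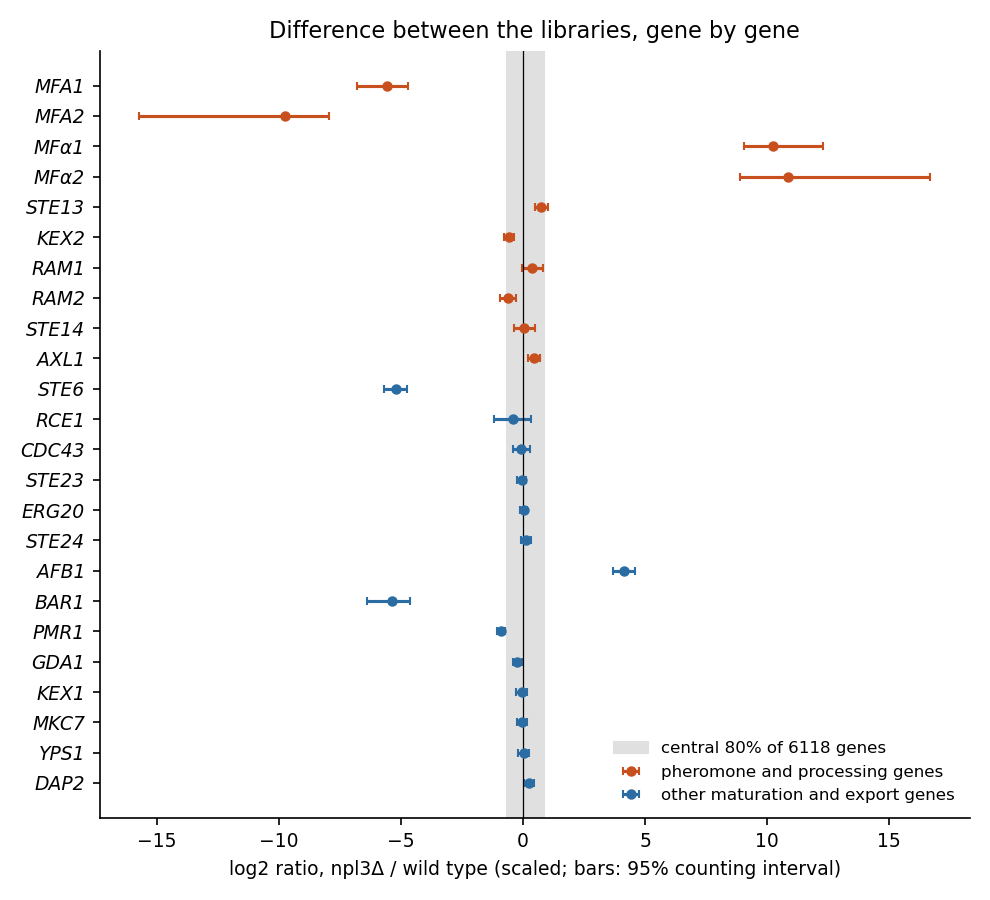
Log2 ratio of *npl3∆* to wild type for the 10 members (orange) and 14 other genes of pheromone maturation, export and turnover (blue), with 95% counting intervals. The grey band holds 80% of the 6118 genes and runs from -0.65 to 0.87. The pheromone genes, *STE6*, *BAR1* and *AFB1* lie far outside the band, *PMR1* lies below it at -0.92, and the processing genes lie inside it.

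Of 14 further genes that take part in the maturation, export or turnover of the pheromones, 3 differed by at least 2-fold, beside 12.4% of all genes. *STE6* (YKL209C), the transporter that exports a-factor from a cells, had 1068 counts in wild type and 40 in *npl3∆*, 37.1-fold lower. *BAR1* (YIL015W), the protease with which a cells degrade α-factor, had 374 and 12, 43.3-fold lower. *AFB1* (YLR040C), a secreted protein of α cells that binds a-factor, had 44 and 1076, 17.6-fold higher. The other 11 had log2 ratios between -0.92 and 0.26.

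These 11 included the enzymes that share the work of the members. Of the proteases of the CaaX end, *STE24* had 327 counts in wild type and 500 in *npl3∆*, a log2 ratio of 0.14. *RCE1* had 30 and 31 counts, a log2 ratio of -0.42. *STE23*, a relative of *AXL1*, was at -0.05, and *ERG20*, which makes the farnesyl group, at 0.02. *CDC43*, which encodes the other partner of Ram2, was at -0.06. On the α-factor side, *KEX1*, whose carboxypeptidase removes the basic residues that Kex2 leaves behind, was at -0.05. *DAP2*, the vacuolar relative of *STE13*, was at 0.26. The aspartyl proteases *YPS1* and *MKC7* were at 0.03 and -0.05. The lowest values on this side were those of *GDA1* and *PMR1*, a GDPase and a calcium pump of the Golgi, at -0.24 and -0.92, so that *PMR1* had a lower log2 ratio than *KEX2*.

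Levels between genes were compared per kilobase of coding length. In wild type, *MFA2* had 1763 CPM per kilobase and *MFA1* 612, ranks 47 and 159 among 6006 protein-coding genes. How fragments that reach beyond such short coding sequences were counted is not given in the sources used here, which limits a comparison with longer genes. *KEX2* and *RAM2* followed at 36.4 and 36.2 with overlapping counting intervals, then *STE14* at 22.0. *AXL1*, *STE13* and *RAM1* lay at 13.4, 12.7 and 11.4, and the intervals of neighbours in this order overlapped. *MF(ALPHA)1* and *MF(ALPHA)2* came last, at 1.67 and 0.574, ranks 5512 and 5701.

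In *npl3∆* the order was headed by *MF(ALPHA)1* with 2274 CPM per kilobase and *MF(ALPHA)2* with 1531, ranks 11 and 40. The 6 processing genes stood closer together than in wild type, from 24.3 for *KEX2* to 14.9 for *RAM1*, and the interval of each overlapped that of the next. *MFA1* followed at 12.1 (5.55 to 23.1), an interval that reached into the range of the processing genes, and *MFA2* was last at 1.28 (0.0324 to 7.13). The residual *MFA1* level thus rests on 9 counts in a coding sequence of 111 bases.

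Since the pheromone genes of 1 kind differed in the same direction, the 500 bases before each start codon were searched on both strands for short motifs known from these genes. The motif CATGTAA, part of the operator to which the repressor α2 binds, was found before *MFA1*, *MFA2*, *STE14* and *AXL1*, 4 of the 10 members, and before 6.25% of 6019 protein-coding genes. In the a-factor genes it lay beside a CCNNNNNNGG frame, the outer letters of the Mcm1 binding site, which was present before 49.1% of all genes and may overlap other motifs. The 30 bases are shown in reading direction of the gene, with both motifs in capitals, the former on the opposite strand. They begin at position -233 of *MFA1* and at -250 of *MFA2*, counted from the start codon.
MFA1 upstream: gtgtaattaCCCAAAAAGGaaatTTACATG
MFA2 upstream: atgtatttaCCTATTCGGGaaatTTACATG
The windows lie at 1384943 to 1384972 of chromosome IV and at 352164 to 352193 of chromosome XIV. The motif CATGTAA was not found in these 500 bases of the α-factor genes. *STE14* and *AXL1*, which also hold it, had log2 ratios of 0.06 and 0.45. Over the other protein-coding genes with at least 10 counts, 349 genes with the motif had a median log2 ratio of 0.04. The median was 0.004 for the 5307 genes without it.

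Before *MF(ALPHA)1*, the CCNNNNNNGG frame was found at positions -479 and -309. The window of the latter is shown with the frame in capitals, since α1 acts together with Mcm1 on the α-specific genes, and lies at 193333 to 193362 of chromosome XVI.
MF(ALPHA)1 upstream: caccttCCTAATTAGGccatcaacgacagt

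The pheromone response element, at which Ste12 activates genes in cells exposed to pheromone, has the core TGAAACA. It was found before 7 of the 10 members and before 722 of 6019 protein-coding genes. The members with the core were *MFA1*, *MFA2*, *MF(ALPHA)2*, *STE13*, *RAM1*, *STE14* and *AXL1*. Among the processing genes it was found before *STE13*, *RAM1*, *STE14* and *AXL1* (log2 ratios 0.74, 0.38, 0.06 and 0.45) and not before *KEX2* and *RAM2* (-0.58 and -0.61). The counting intervals of *RAM1* (-0.04 to 0.82) and *STE14* (-0.38 to 0.50) included 0, so that neither can be placed on 1 side of it. All these genes had been chosen with this contrast known, and nothing is read from the division. The 4 sites are shown with the core in capitals, which in *STE13* lies on the opposite strand.
STE13 upstream: ccgatgaaattTGTTTCAcggtataacaaa
RAM1 upstream: aagcttgaaacTGAAACAcgcgaaagtggc
STE14 upstream: ccgattgataaTGAAACAtcactcaagacg
AXL1 upstream: caagaaaaaaaTGAAACActtatttacacg
The cores begin at positions -168, -107, -183 and -150. Over the other protein-coding genes with at least 10 counts, the median log2 ratio was -0.01 for 680 genes with the core and 0.01 for 4976 without it. A match of letters is a description of the sequence and does not show that a factor binds there.

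**Figure D5:**
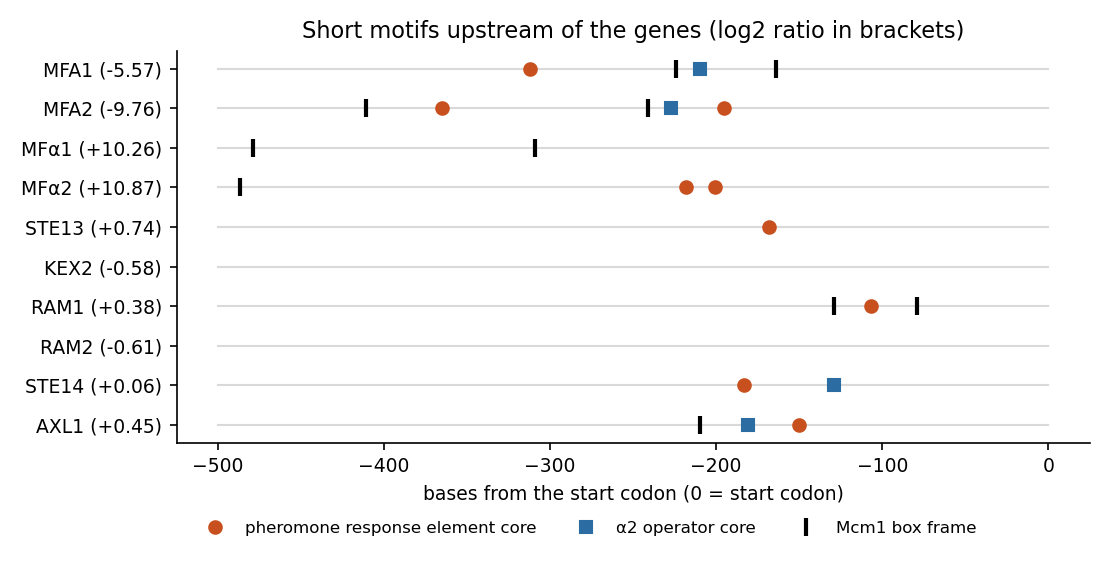
Position of the 3 short motifs in the 500 bases before the start codon, in bases on the horizontal axis, with 1 line per gene and its log2 ratio of *npl3∆* to wild type in brackets. Orange circles are pheromone response element cores, blue squares α2 operator cores and black strokes Mcm1 box frames. Blue squares stand beside a stroke in *MFA1* and *MFA2*, at -210 and -227, and circles stand before *STE13*, *RAM1*, *STE14* and *AXL1*, of which *RAM1* and *STE14* have counting intervals that include 0.

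Genes of similar pattern were sought among 4881 further genes with at least 100 counts by the distance of their log2 ratio, over the 2 libraries, from the median of each pheromone pair. Nearest to the a-factor genes (median -7.66) were YDR433W at -7.38, the α-factor receptor gene *STE2* at -6.97 and *NPL3* at -9.03. YDR433W, a row without a match in the RefSeq annotation, had 430 and 3 counts, and *STE2* had 774 and 8. The systematic name of YDR433W is next to that of the deleted gene *NPL3* (YDR432W), which also had 3 counts in *npl3∆*. Whether the YDR433W row covers sequence removed with *NPL3* was not tested. Nearest to the α-factor genes (median 10.57) were the a-factor receptor gene *STE3* with 6 and 1326 counts at 7.21, *BDF1* at 6.18 and the agglutinin gene *SAG1* with 81 and 4955 counts at 5.45. *STE3* thus lay 3.35 from the median of the α-factor genes on the log2 scale, and YDR433W lay 0.28 from that of the a-factor genes. The genes named here that are specific to a cells (*MFA1*, *MFA2*, *STE2*, *STE6* and *BAR1*) were all lower in the library labelled *npl3∆*. Those specific to α cells (*MF(ALPHA)1*, *MF(ALPHA)2*, *STE3*, *SAG1* and *AFB1*) were all higher. Each had been chosen with this contrast known or was picked by its log2 ratio, so nothing is read from their shared direction. Lower a-specific and higher α-specific counts are also the direction in which a culture of α cells differs from one of a cells. Whether the cultures differed in mating type was not tested. Such a difference cannot be told apart from an effect of the *NPL3* deletion in these libraries.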

How the data were processed

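Stranded libraries were made from total RNA without rRNA depletion. Reads were aligned by the authors with Hisat2 (build sacCer3), and featureCounts was used to assign them to features. The deposited values are raw counts, and versions, annotation and the treatment of reads with several positions are not given in the sources used here. The coverage of the 35S rRNA was not used. The count table held 22 rRNA features and 2 features inside the 35S rRNA, which were left out of the library sizes, and 7103 others. Gene names, coordinates and sequences came from RefSeq (R64), in which all 10 members matched by locus tag. A further planned upstream motif is not reported here. Amino acid sequences are not printed, and codons were translated only to place features.

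The log2 ratio used a pseudocount of 0.5, a minimum of 10 counts in the libraries together and a threshold of 2-fold. Ratios carry 95% exact conditional binomial intervals, levels exact Poisson intervals, and quotients between genes exact conditional odds ratio intervals. A floor of 3 counts was set but not applied, so ratios resting on a count of 1 were kept. The code for the intervals and ratios was checked on counts simulated with Poisson error alone, which does not show the spread of real counts. No test between genotypes was possible with 1 library each. The members and lists were chosen with earlier results of these data known. All members, a list of 14 other pheromone genes, *NPL3*, *ATG26*, *BDF1* and, per pheromone pair, the 3 genes of nearest log2 ratio were named by rule. *CMI8* and the choice of quotients and of the sites shown followed from their values. Alternatives concerned the scaling (median of ratios from DESeq2 1.42.0, TMM from edgeR 4.0.16, library size without *ATG26* and *BDF1*, none), pseudocount, minimum count and fold threshold. The software comprised R 4.3.3, biopython 1.88, matplotlib 3.10.9, scipy 1.17.1, numpy 2.4.6, pandas 2.3.3 and Python 3.11.15.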

Additional observations from a re-analysis of the deposited data

How the results depend on the processing

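The pheromone genes kept their direction and differed by at least 4.95 on the log2 scale under each scaling, pseudocount and minimum count tried. With a pseudocount of 5, the medians of the a-factor and α-factor pairs moved from -7.66 to -6.30 and from 10.57 to 9.18. The median of the 6 processing genes moved from 0.22 to 0.46 with a library size without *ATG26* and *BDF1* and to 0.69 without scaling, while the median of all genes moved from 0.02 to 0.26 and 0.49, so that the difference between these medians was 0.20 in each case. Of 102 values recomputed, 90 moved by less than the distance from the ratio to the end of its counting interval or, for counts of genes, by less than 1.5 times. For *MFA2*, with 1 count in *npl3∆*, that distance is wide, and its log2 ratio moved from -9.76 to -7.65 with a pseudocount of 5. The changes of the minimum count could not move the values of the members, because every member had more than 100 counts in the libraries together. The share of all genes past 2-fold was 12.4%, but 20.2% without scaling and 7.16% with a minimum of 100 counts. Of the genes past 2-fold, 65.4% were higher in *npl3∆*, but 81.8% without *ATG26* and *BDF1* in the library size and 90.7% without scaling. Depth limits all values that rest on the 1 to 9 counts of the weakly expressed pheromone genes. No paired analysis was possible because there was 1 library per genotype.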
